A study of Mus musculus with 12 samples.

Results

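The nuclear receptor superfamily was examined in HT-22 cells through 43 receptor genes, taken from a list of the family by gene symbol without the REV-ERB genes. Of these, 40 genes were named by a probe of the array, with 79 probes among the 45281 measured, and no probe was named for *Nr1h2*, *Nr2f1* or *Nr2e3*. The line came from mouse hippocampal tissue and was made to divide without limit by a viral T antigen (SV40). The cells were grown with serum from which thyroid hormones and steroids had been removed, and were then treated in medium without serum for 4 h. The 4 groups received 30 nM triiodothyronine (T3), 100 nM corticosterone (CORT), both hormones (T3+CORT), or vehicle alone, and every group held 0.03% DMSO and 0.001% ethanol. Each group had 3 arrays, so that 12 arrays were compared. The comparisons ask whether either hormone, or their combination, changes the mRNA of the receptors themselves.

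Nuclear receptors are transcription factors that share a zinc finger DNA-binding domain and, in most members, a pocket for a small lipophilic ligand. Thyroid hormone receptors bind T3 and act on DNA largely as partners of retinoid X receptors, which are also the partners of the vitamin D, retinoic acid, bile acid, oxysterol and peroxisome proliferator-activated receptors. Glucocorticoid and mineralocorticoid receptors bind CORT, the main glucocorticoid of rodents, and bind DNA mainly as pairs of like molecules. In hippocampus both corticosteroid receptors and both thyroid hormone receptors are known to be expressed. Other members, called orphans, have no established hormone.

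All values are normalized probe intensities on a linear scale. The arrays shared one distribution of intensities, with a median of 71.2 or 71.3, and 16520 to 16544 probes per array reached 87.0, the limit of detection used here. That limit came from detection p values (under 0.05) of 6 of 12 columns with no sample label, carried over by rank to the normalized values of all arrays. The other 6 columns, with at most 5.4% of probes detected, were left out. A probe was tested if at least 3 of the 12 arrays reached the limit, which 17746 probes did (39.2% of all). The labels call the cells hippocampal neurons. Among neuronal markers, *Eno2*, *Tubb3* and *Syp* were above the limit (3 of 11 with a probe), while *Nefl*, *Nefm*, *Map2*, *Rbfox3*, *Snap25*, *Dcx*, *Stmn2* and *Gap43* were not. All 7 fibroblast and mesenchymal markers were above it, with 1 of 5 astrocyte markers, 0 of 3 oligodendrocyte markers and 0 of 3 microglial markers.

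Of the 40 receptor genes with a probe, 15 were above the limit, 20 lay below it on every array and 5 reached it on 1 or 2 arrays. By probe, 24 of 79 were above the limit (30.4%, against 39.2% of all probes), 18 of them on all 12 arrays, and 50 lay below it everywhere. At this limit of 87.0, the receptors of the hormones given were at or under the edge of detection. *Thra*, which encodes thyroid hormone receptor alpha, reached the limit on 5 arrays with intensities of 62.9 to 95.5, and *Thrb*, which encodes the beta receptor, stayed between 48.1 and 62.2. *Nr3c1*, the glucocorticoid receptor gene, lay between 72.9 and 88.9 with 1 array above the limit, so it was not tested. With a lower limit of 71.7, taken from the normalized values alone, *Nr3c1* was above it on every array and *Thrb* on none. The study cites earlier work in which these cells held functional thyroid hormone and glucocorticoid receptors. *Nr3c2*, the mineralocorticoid receptor gene, did not pass 75.1 at either of its 2 probes. Each of *Thra*, *Thrb* and *Nr3c1* had 1 probe on the array, and a dim probe gives no measure of the receptor protein. In RNA of whole cultures, fewer expressing cells and less RNA per cell cannot be told apart.

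The dim receptors of the hormones given, and the retinoid X receptor *Rxrg*, were not tested, and their values are given alone. *Nr3c1* (ILMN_2740568) read 83.0, 88.9 and 86.7 on T3 arrays, 85.0, 72.9 and 83.5 on CORT arrays, and 83.1, 83.5 and 76.6 on T3+CORT arrays, against 85.4, 77.0 and 85.0 on vehicle arrays, so that all groups overlapped. *Thrb* (ILMN_2698682) read 48.1, 57.9 and 55.4 on T3 arrays, 56.6, 62.2 and 53.1 on CORT arrays, and 55.6, 53.4 and 54.1 on T3+CORT arrays, against 52.4, 49.2 and 53.2 on vehicle arrays. Among these *Thrb* values the T3+CORT arrays lay above those of vehicle, all of them within the range of probes not detected. *Nr3c2* (ILMN_2648549) read 64.2, 60.1 and 60.5 on T3 arrays, 65.9, 59.4 and 75.1 on CORT arrays, and 69.0, 62.4 and 69.7 on T3+CORT arrays, against 54.6, 64.0 and 60.3 on vehicle arrays. Its second probe, ILMN_2751258, stayed between 50.7 and 63.2. *Rxrg* (ILMN_1232561), a retinoid X receptor known from brain and muscle, read 71.1, 59.4 and 74.9 on T3 arrays, 65.0, 61.8 and 70.0 on CORT arrays, and 55.1, 63.6 and 62.6 on T3+CORT arrays, against 65.2, 62.7 and 63.9 on vehicle arrays.

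The other classes were detected unevenly. Of the retinoid X receptors, *Rxra* and *Rxrb* were above the limit and *Rxrg* was not (highest value 74.9). Of the retinoic acid receptors, *Rarg* was above it with 3 probes, *Rarb* was not, and *Rara* reached it on 1 array (highest value 93.5). *Vdr*, the vitamin D receptor gene, was above the limit with all 3 probes, and so was *Nr1h4*, which encodes the bile acid receptor FXR, with its only probe. The oxysterol receptor gene *Nr1h3* and the xenobiotic receptor gene *Nr1i2* stayed under it, and *Nr1i3* reached it on 1 array at 1 of its 5 probes. *Ppard* was above the limit at 1 of its 2 probes, while *Ppara* and *Pparg* were below it on every array. The sex steroid receptor genes *Esr1*, *Esr2* and *Pgr* and the genes *Rora* and *Rorb* were also below it throughout. *Esrra*, an orphan receptor of mitochondrial and oxidative genes, was above the limit, *Esrrg* was below it, and *Esrrb* reached it on 2 arrays. The COUP-TF genes *Nr2f2* and *Nr2f6*, which encode mostly repressive orphan receptors, were above it, as were *Nr2c1*, *Nr6a1*, *Nr2e1* (3 arrays) and *Hnf4a* (10 arrays), while *Nr2c2* was not. Of the NR4A genes, which many stimuli induce within hours, *Nr4a2* reached the limit on 11 arrays, and *Nr4a1* (at most 61.2) and *Nr4a3* (at most 79.3) on none. *Nr5a1*, *Nr0b1* and *Nr0b2* were below the limit, and *Nr5a2* reached it on 1 array.

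**Figure D1:**
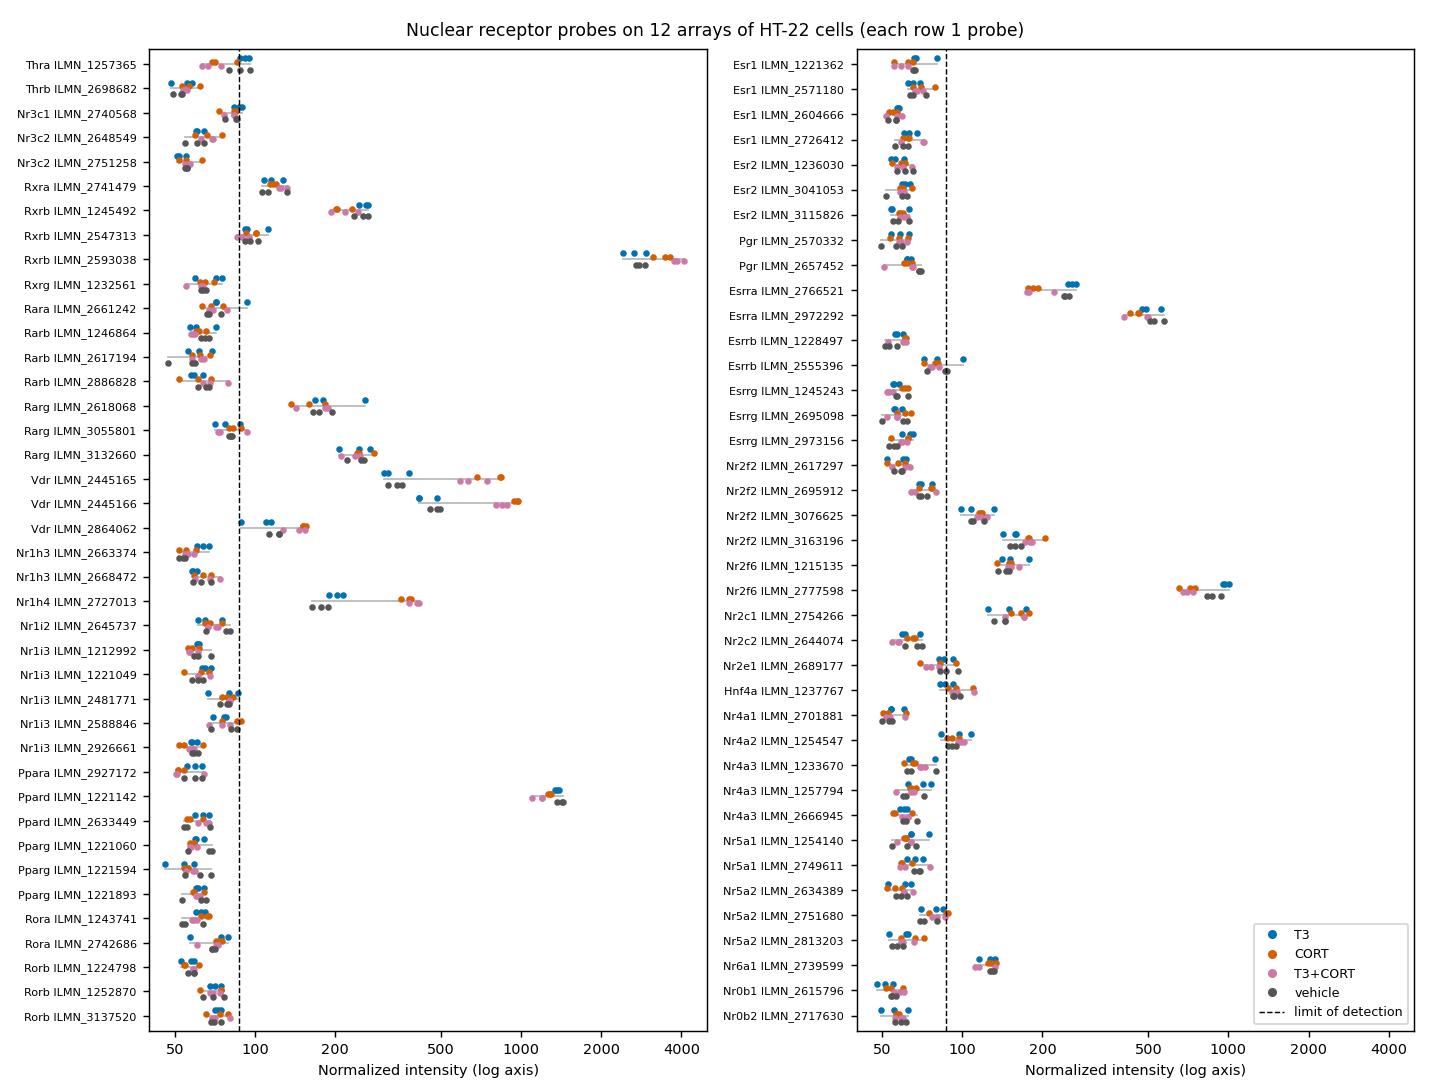
Normalized intensity of all 79 receptor probes on a log axis, 1 row per probe, with 1 point for each of the 12 arrays coloured by group (T3, CORT, T3+CORT, vehicle) and a grey line over their range. The dashed line is the limit of detection at 87.0: 50 probes lie to its left on every array, and 18 lie to its right on all 12.

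On CORT a minority of the detected receptors differed from vehicle in mRNA. *Vdr* rose 2.32-fold and 2.01-fold at 2 of its 3 probes and *Nr1h4* rose 2.11-fold. *Rxrb* rose less at 1 of its 3 probes, and *Esrra* and *Nr2f6* fell, each at 1 of 2 probes. The labels name no slide, and if slides divided the arrays by CORT treatment, slide and CORT cannot be told apart. In CORT against vehicle, 7 of the 24 receptor probes (29.2%) passed an adjusted p of 0.05, 5 higher and 2 lower, against 20.7% of all tested probes (9.87% higher and 10.8% lower). The 7 probes belong to 5 of the 15 detected genes. With the methods' t-test 2 of the 7 remained past the threshold. In T3+CORT against vehicle, 8 of 24 probes (33.3%) in 7 genes passed, 4 higher and 4 lower, against 20.7% of all tested probes (10.1% higher and 10.6% lower), and 3 passed with the methods' t-test. In T3+CORT against T3, 9 of 24 probes (37.5%) in 7 genes passed, 5 higher and 4 lower, against 22.3% of all tested probes (10.8% higher and 11.5% lower), and 0 passed with the methods' t-test. The lower probes of these last comparisons include *Thra*, which reached the limit of detection on no array with CORT and so entered the test only through the groups where it was high. Without it, 7 of 23 probes in 6 genes passed on T3+CORT (4 higher and 3 lower) and 8 of 23 in 6 genes in T3+CORT against T3 (5 higher and 3 lower). The set is small and the shares of all tested probes are large, so nothing particular to receptors is read from these counts. The median log2 fold change of the 24 probes was 0.01 on CORT and 0.02 on T3+CORT, against -0.01 over all tested probes in both comparisons, and their median absolute change was 0.20 in both, against 0.14. The 3 hormone groups were set against the same vehicle arrays.

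*Vdr* encodes the receptor for 1,25-dihydroxyvitamin D, which binds DNA with a retinoid X receptor. At probe ILMN_2445165 its intensity was 305, 378 and 316 on T3 arrays, 683, 838 and 833 on CORT arrays, and 743, 633 and 589 on T3+CORT arrays, against 356, 341 and 315 on vehicle arrays. All 6 arrays with CORT were above all 6 without it. The means were 785 ± 87.9 on CORT and 655 ± 79.4 on T3+CORT, against 338 ± 20.7 on vehicle (SD, n = 3 each), and the log2 fold changes were 1.21 (standard error 0.11, adjusted p = 1.1e-06, limma) on CORT and 0.95 (standard error 0.11, adjusted p = 2.3e-05, limma) on T3+CORT. With the methods' t-test neither passed (adjusted p = 0.06 on CORT and 0.068 on T3+CORT, with n = 3 arrays a group).

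At a second *Vdr* probe, ILMN_2445166, the intensity was 414, 483 and 414 on T3 arrays, 937, 972.5 and 968 on CORT arrays, and 885, 847 and 803 on T3+CORT arrays, against 494, 453 and 484 on vehicle arrays. Again the arrays with CORT and those without it were separate, and the T3+CORT arrays all lay below the CORT arrays. The log2 fold change was 1.01 on CORT (standard error 0.09, adjusted p = 4e-07, limma) and 0.82 on T3+CORT (standard error 0.09, adjusted p = 4.8e-06, limma), and both calls were kept with the methods' t-test (adjusted p = 0.04 on CORT and 0.037 on T3+CORT). The third probe, ILMN_2864062, is annotated to the same transcript and moved less. It read 114, 88.4 and 110 on T3 arrays, 152, 156 and 151 on CORT arrays, and 153, 127 and 146 on T3+CORT arrays, against 112, 123 and 123 on vehicle arrays. Its log2 fold change passed on CORT (0.36, adjusted p = 0.018, limma) and did not on T3+CORT (0.25, adjusted p = 0.09), although the T3+CORT arrays did not overlap those of vehicle. Its call on CORT was lost without CORT replicate 2 (0.34, adjusted p = 0.055) or without vehicle replicate 1 (0.31, adjusted p = 0.079).

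*Nr1h4* encodes FXR, which in liver and intestine senses bile acids. Its probe ILMN_2727013 read 213, 204 and 189 on T3 arrays, 385, 353 and 378 on CORT arrays, and 406, 413 and 378 on T3+CORT arrays, against 177, 188 and 164 on vehicle arrays. Every array with CORT was above every array without it. The means were 372 ± 16.7 on CORT and 399 ± 18.5 on T3+CORT, against 176 ± 12 on vehicle, and the log2 fold changes were 1.08 (standard error 0.09, adjusted p = 2e-07, limma) on CORT and 1.18 (standard error 0.09, adjusted p = 6.1e-08, limma) on T3+CORT. Both were kept with the methods' t-test (adjusted p = 0.04 on CORT and 0.037 on T3+CORT). *Vdr* at 2 probes and *Nr1h4* were the members that also changed by at least 1.5-fold at an unadjusted p under 0.02, the thresholds of the study. These 3 probes of 24 stand beside 2.39% of all tested probes on CORT, 2.32% on T3+CORT and 2.61% in T3+CORT against T3.

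The 250 bases before the start of each of these 2 genes are shown because these genes had the largest fold changes among the tested receptor probes. They are RefSeq sequences of build GRCm38.p6, written 5′ to 3′ on the strand of the gene. *Vdr* lies on chromosome 15 from 97854427 to 97908296 and its window at chr15:97908297-97908546 (minus strand). *Nr1h4* lies on chromosome 10 from 89454234 to 89533645 and its window at chr10:89506659-89506908 (minus strand), before a start inside the gene. Capitals mark matches on either strand to the corticosteroid receptor half-site AGAACA, to AGGTCA, the half-site of receptors that pair with retinoid X receptors, or to the GC box GGGCGG.
Vdr: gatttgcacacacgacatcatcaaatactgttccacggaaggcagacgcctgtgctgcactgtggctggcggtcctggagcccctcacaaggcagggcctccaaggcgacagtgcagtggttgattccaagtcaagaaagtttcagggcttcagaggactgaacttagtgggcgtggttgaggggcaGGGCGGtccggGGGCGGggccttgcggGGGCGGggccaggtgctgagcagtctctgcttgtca
Nr1h4: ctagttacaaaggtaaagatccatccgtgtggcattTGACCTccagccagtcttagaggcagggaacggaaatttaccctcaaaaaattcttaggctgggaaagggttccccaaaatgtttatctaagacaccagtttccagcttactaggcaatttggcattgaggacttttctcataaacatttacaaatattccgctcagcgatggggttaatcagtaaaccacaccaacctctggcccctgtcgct
The *Vdr* window holds 3 GC boxes, at -63, -52 and -36 from the start, and the *Nr1h4* window holds 1 AGGTCA, read as TGACCT, at -214. AGAACA occurs in neither, nor in the window of any of the 14 detected receptor genes that have one. Of all 32851 RefSeq windows of this length 16.1% hold it, and of all 27025 genes with a window 18.2% hold it in at least 1. AGGTCA occurs in 14.0% of all windows and 15.8% of all genes, in 4 of the 14 detected receptor genes, and in *Nr1h4* alone of the 6 with a window that passed in at least 1 comparison. The GC box was added to the search after these letters had been seen. It occurs in 32.7% of all windows and 35.4% of all genes, in 9 of the 14 detected receptor genes and in 5 of those 6 (*Vdr*, *Rxrb*, *Ppard*, *Esrra* and *Nr2f6*). The windows of these 5 are rich in G and C, at 61.2% to 82.4%, against a median of 52.4% over all windows. A match describes the letters of the window and shows no binding.

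**Figure D2:**
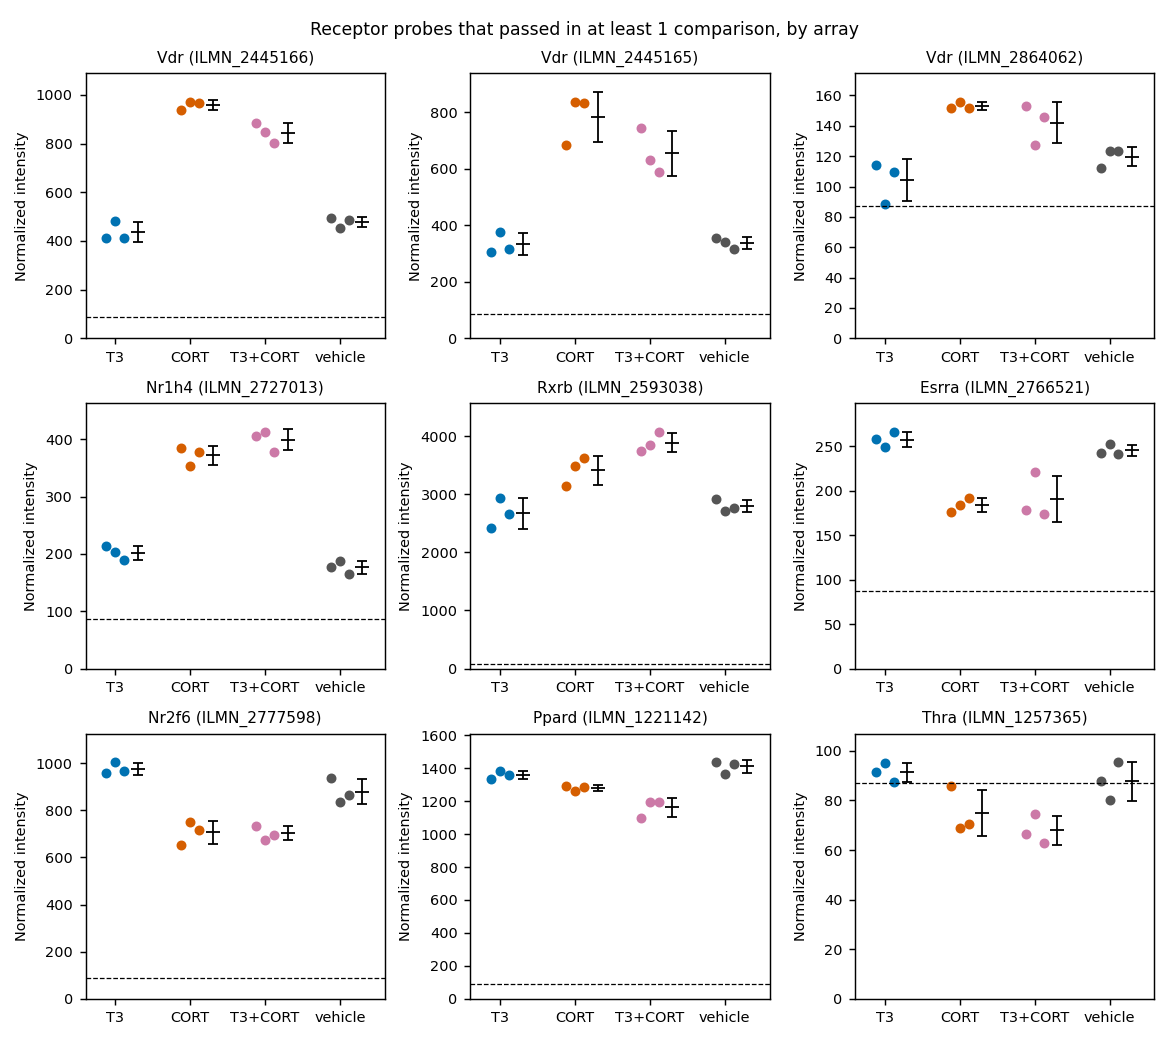
Normalized intensity (linear axes from 0) of the 9 receptor probes that passed in at least 1 comparison, with 1 point per array in the order of replicates 1 to 3 for T3, CORT, T3+CORT and vehicle, and bars for the mean ± SD of each group. At *Nr1h4*, *Rxrb* and all 3 *Vdr* probes the 6 arrays with CORT lie above the 6 without it. At *Esrra*, *Nr2f6* and *Ppard* they lie below. For *Thra* all T3+CORT points lie under the dashed limit of detection at 87.0.

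*Rxrb*, which encodes a retinoid X receptor, was measured by 3 probes that moved differently. Probe ILMN_2593038 read 2416, 2942 and 2659 on T3 arrays, 3140, 3479 and 3622 on CORT arrays, and 3746, 3850.1 and 4075 on T3+CORT arrays, against 2920.4, 2711 and 2767 on vehicle arrays. The CORT arrays were all above vehicle, and the T3+CORT arrays were all above the CORT arrays. Its log2 fold change was 0.28 on CORT (standard error 0.08, adjusted p = 0.023, limma) and 0.47 on T3+CORT (standard error 0.08, adjusted p = 0.00086, limma). The call on CORT was lost without CORT replicate 2 (0.27, adjusted p = 0.073), CORT replicate 3 (0.24, adjusted p = 0.1), vehicle replicate 2 (0.26, adjusted p = 0.084) or vehicle replicate 3 (0.28, adjusted p = 0.074), while that on T3+CORT was kept without any 1 array.

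A second *Rxrb* probe annotated to the same transcript, ILMN_1245492, read 245, 266 and 261 on T3 arrays, 204, 231 and 201 on CORT arrays, and 244, 217 and 193 on T3+CORT arrays, against 266, 235 and 254 on vehicle arrays. The CORT arrays all lay under those of vehicle, and the T3+CORT arrays overlapped them. Its log2 fold changes had the opposite sign and did not pass (-0.25 on CORT, adjusted p = 0.079, and -0.21 on T3+CORT, adjusted p = 0.13, limma). The third, ILMN_2547313, annotated to a cDNA clone, read 91.2 to 112 on T3 arrays, 92.3 to 100.5 on CORT arrays and 85.8 to 94.8 on T3+CORT arrays, against 91.9 to 103 on vehicle arrays. Its log2 fold change was 0.01 on CORT (95% interval -0.17 to 0.20) and of -0.11 on T3+CORT (-0.29 to 0.08). *Rxrb* is thus given by probe, with no direction for the gene. *Rxra*, the partner receptor with 1 probe, read 115, 127 and 108 on T3 arrays, 114, 117 and 119.9 on CORT arrays, and 125, 131 and 123 on T3+CORT arrays, against 112, 131 and 106 on vehicle arrays. The range of each hormone group overlapped that of vehicle, while the T3+CORT arrays all lay above the CORT arrays. Its log2 fold change was 0.01 on CORT (-0.18 to 0.20) and 0.13 on T3+CORT (-0.06 to 0.31).

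*Esrra* encodes estrogen-related receptor alpha, which binds no estrogen and regulates genes of mitochondrial metabolism. Its probe ILMN_2766521 read 258, 249 and 266.5 on T3 arrays, 177, 184.5 and 192 on CORT arrays, and 178, 221 and 174 on T3+CORT arrays, against 243, 252 and 242 on vehicle arrays. All arrays with CORT were below all arrays without it. The log2 fold change was -0.42 on CORT (standard error 0.09, adjusted p = 0.0049, limma) and -0.37 on T3+CORT (standard error 0.09, adjusted p = 0.0098, limma), and the T3+CORT call was lost without T3+CORT replicate 3 (-0.31, adjusted p = 0.055). At the other *Esrra* probe, ILMN_2972292, the log2 fold changes had the same sign and did not pass (-0.25 on CORT, adjusted p = 0.076, and -0.20 on T3+CORT, adjusted p = 0.16, limma).

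*Nr2f6* encodes an orphan receptor of the COUP-TF group. Its probe ILMN_2777598 read 957, 1005 and 967 on T3 arrays, 654, 749 and 715 on CORT arrays, and 734, 675 and 697 on T3+CORT arrays, against 937, 833.5 and 865.5 on vehicle arrays. The arrays with and without CORT did not overlap. Its log2 fold change was -0.32 on CORT (standard error 0.08, adjusted p = 0.012, limma) and -0.32 on T3+CORT (standard error 0.08, adjusted p = 0.011, limma). The CORT call was lost without CORT replicate 1 (-0.26, adjusted p = 0.059) or vehicle replicate 1 (-0.27, adjusted p = 0.07), and the T3+CORT call without vehicle replicate 1 (-0.28, adjusted p = 0.062). The other *Nr2f6* probe, ILMN_1215135, annotated to the same transcript, had log2 fold changes of 0.01 on CORT (-0.18 to 0.21) and 0.10 on T3+CORT (-0.09 to 0.30).

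*Ppard*, which encodes a fatty acid receptor expressed in many tissues, passed on T3+CORT and not on CORT. Its probe ILMN_1221142 read 1336, 1386 and 1360 on T3 arrays, 1295, 1261 and 1283 on CORT arrays, and 1097, 1196.5 and 1196 on T3+CORT arrays, against 1438, 1367 and 1428 on vehicle arrays. The T3+CORT arrays were the lowest of the 12, and the CORT arrays also lay under those of vehicle. The log2 fold change was -0.14 on CORT (95% interval -0.29 to 0.01, adjusted p = 0.19, limma) and -0.28 on T3+CORT (-0.43 to -0.13, adjusted p = 0.012, limma), a call that was lost without T3+CORT replicate 1 (-0.24, adjusted p = 0.059) or vehicle replicate 1 (-0.27, adjusted p = 0.053). The difference between T3+CORT and CORT did not pass (-0.14, -0.29 to 0.02, adjusted p = 0.61).

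*Thra* (ILMN_1257365) read 91.4, 95 and 87.5 on T3 arrays, 85.7, 68.7 and 70.4 on CORT arrays, and 66.5, 74.4 and 62.9 on T3+CORT arrays, against 87.7, 80.0 and 95.5 on vehicle arrays. All T3 arrays and 2 of the vehicle arrays reached the limit of detection, and no array with CORT did. As *Thra* was tested only because of those 5 arrays, a lower value with CORT was built into its selection, and its fitted differences are a description and no evidence of a fall. The log2 fold change was -0.23 on CORT (adjusted p = 0.097, limma) and -0.37 on T3+CORT (standard error 0.10, adjusted p = 0.012, limma), and the T3+CORT call was lost without T3+CORT replicate 3 (-0.32, adjusted p = 0.059) or vehicle replicate 3 (-0.31, adjusted p = 0.063). T3+CORT was under the limit on every array, with a measured mean of 67.9. Vehicle, at a mean of 87.7, also had an array under the limit (80.0), so no least fold is given between them.

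The remaining 15 detected probes passed in no comparison. Besides those given above, they include *Rarg* at all 3 probes, *Nr2f2* at both detected probes, *Nr2c1*, *Nr2e1*, *Hnf4a*, *Nr4a2* and *Nr6a1*. Of the next members, *Nr2f2* and *Nr4a2* were picked out after their values were seen. The nearest to the threshold on CORT was *Nr2f2* at ILMN_3163196, at 0.23 on the log2 scale (adjusted p = 0.062, limma) and means of 186 ± 15.7 on CORT, against 158 ± 7.53 on vehicle. *Nr4a2*, the NR4A gene that was detected, had a log2 fold change of 0.06 for T3, 0.01 for CORT and 0.11 for T3+CORT. Among the 24 probes, 12 on CORT and 14 on T3+CORT had arrays that did not overlap those of vehicle, against 42.0% and 43.4% of all tested probes. In T3+CORT against T3 the arrays of 11 probes did not overlap, against 34.8% of all tested probes. The 14 include *Thra* and *Nr2e1*, and the 11 include *Thra*, each with lower values on T3+CORT. Both were under the limit of detection on every T3+CORT array and were tested only through other groups, so nothing is read from their part in these counts.

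**Figure D3:**
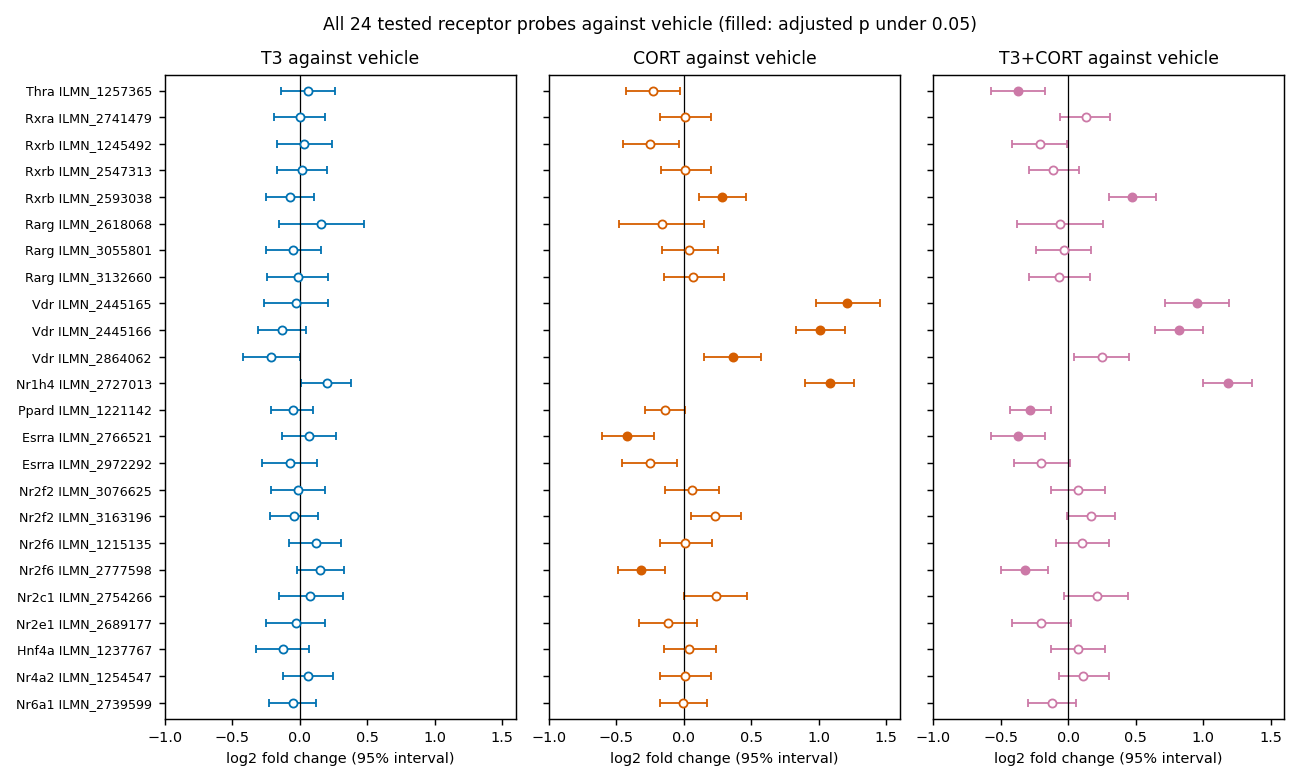
Log2 fold change against vehicle of all 24 tested receptor probes on T3 (left), CORT (middle) and T3+CORT (right), with 95% intervals from limma; filled points passed an adjusted p of 0.05. No point is filled on T3, 7 are filled on CORT and 8 on T3+CORT, of which *Thra* was under the limit of detection on every array with CORT, and the 3 points near or above 1 on CORT are *Vdr* at 2 probes and *Nr1h4*.

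T3 alone changed no detected receptor past the threshold. Of 24 probes 0 passed in T3 against vehicle (limma), where 0.0902% of all tested probes passed, and the methods' t-test also called 0. At an unadjusted p under 0.05 there was 1, *Nr1h4*, whose T3 arrays all lay above those of vehicle (means of 202 ± 12 and 176 ± 12, log2 fold change 0.20, 95% interval 0.01 to 0.38, adjusted p = 0.91). Arrays of 3 of the 24 probes did not overlap between T3 and vehicle, against 9.68% of all tested probes. The log2 fold changes of the 24 probes on T3 ran between -0.21 for *Vdr* at ILMN_2864062 and 0.20 for *Nr1h4*. The 95% intervals reached 0.15 to 0.32 to either side, with a median of 0.20, and a change that misses the threshold is not shown to be absent. *Thra*, the receptor of T3 itself, had a log2 fold change of 0.06 on T3 (-0.14 to 0.26).

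With CORT present, T3 also moved no receptor past the threshold: 0 of 24 probes passed in T3+CORT against CORT (limma), where 0.558% of all tested probes passed, and 0 passed with the methods' t-test. At an unadjusted p under 0.05 there were 3. These were *Vdr* at ILMN_2445165 (-0.26, 95% interval -0.50 to -0.02, adjusted p = 0.5), *Vdr* at ILMN_2445166 (-0.18, adjusted p = 0.55) and *Rxrb* at ILMN_2593038 (0.19, 0.01 to 0.37, adjusted p = 0.51). Arrays of 4 of the 24 probes did not overlap between T3+CORT and CORT, against 16.7% of all tested probes.

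The effect of CORT in the presence of T3 is given by T3+CORT against T3, whose arrays are not shared with CORT against vehicle. The log2 fold changes with T3 present and without it were 0.98 and 1.21 for *Vdr* at ILMN_2445165, 0.95 and 1.01 at ILMN_2445166, and 0.45 and 0.36 at ILMN_2864062. For *Nr1h4* they were 0.98 and 1.08, and for *Rxrb* at ILMN_2593038 they were 0.55 and 0.28. *Esrra* at ILMN_2766521 had -0.44 and -0.42, *Nr2f6* at ILMN_2777598 had -0.48 and -0.32, and *Ppard* had -0.23 and -0.14. All 8 of these probes passed with T3 present (adjusted p between 7e-07 for *Nr1h4* and 0.034 for *Ppard*, limma), and 7 passed without it. With the methods' t-test 0 passed with T3 present (the lowest adjusted p was 0.089, for *Nr1h4*) and 2 passed without it. *Thra* was below the limit on every T3+CORT and CORT array, with measured means of 67.9 on T3+CORT and 91.3 on T3. With the limit in place of the T3+CORT values, T3 was at least 1.05-fold higher. The means were 74.9 on CORT and 87.7 on vehicle, and the arrays of these groups overlapped. As *Thra* entered the test only through the groups without CORT, these values are a description and no evidence of a fall. The *Ppard* call with T3 present was lost without T3 replicate 2 (-0.21, adjusted p = 0.068) or T3 replicate 3 (-0.23, adjusted p = 0.06), and without any 1 of the T3+CORT arrays (-0.19, -0.25 and -0.25, adjusted p = 0.13, 0.058 and 0.053).

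The difference between the effect with T3 and that without it is the interaction of T3 and CORT. It passed for 0 of 24 receptor probes (limma), against 0.113% of all tested probes, and for none under the alternatives run. At an unadjusted p under 0.05 there was 1, *Rxrb* at ILMN_2593038, with 0.26 on the log2 scale (adjusted p = 0.77). The interaction of the 24 probes ran between -0.24 for *Vdr* at ILMN_2445165 and that value, with a median 95% interval of 0.28 to either side.

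**Figure D4:**
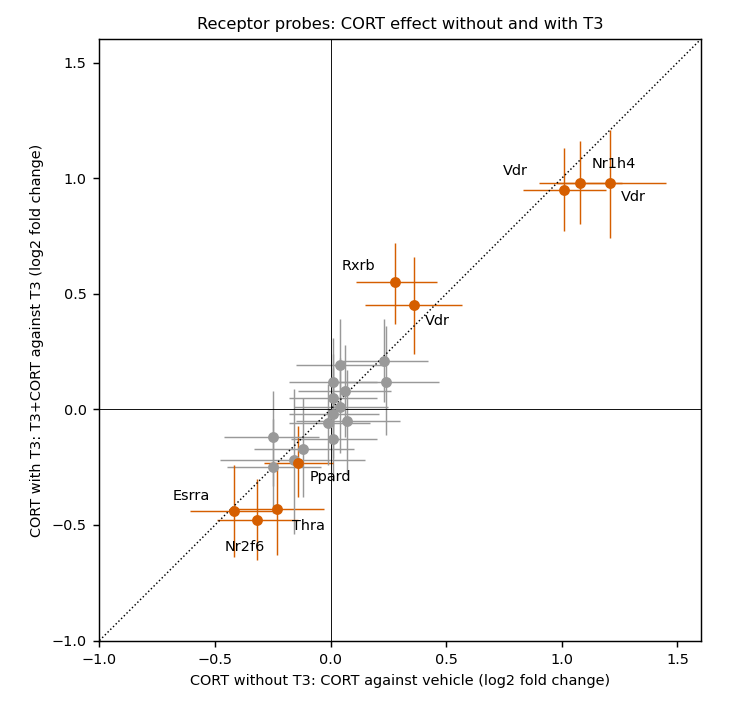
Log2 fold change of the 24 tested receptor probes in CORT against vehicle (x axis) and in T3+CORT against T3 (y axis), with 95% intervals from limma; orange probes passed in at least 1 of these comparisons and the dotted line marks equal effects. *Vdr* at 2 probes and *Nr1h4* lie at 0.95 or more on both axes, and *Rxrb* at 0.28 and 0.55 is the probe whose difference between the axes is largest, at 0.26.

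Genes that carry or convert the ligands of these receptors were mostly below the limit of detection. Of 36 such genes 32 had a probe and 6 were tested: *Slc16a10*, *Rdh10*, *Rdh11*, *Fabp5*, *Hsd17b7* and *Hsd17b12*. Of the 6, 0 passed on T3 and 0 on CORT (limma), against 0.0902% and 20.7% of all tested probes, and 2 passed on T3+CORT, against 20.7%. On T3+CORT *Hsd17b7*, a reductase of estrogen and cholesterol synthesis, rose (log2 fold change 0.25, adjusted p = 0.026), and *Hsd17b12*, a reductase of fatty acid elongation, fell (-0.35, adjusted p = 0.037). Without vehicle replicate 1, 2 or 3, or without T3+CORT replicate 2 or 3, 0 of the 6 passed on T3+CORT, and without T3+CORT replicate 1 the count was 1. The median log2 fold change of the 6 was -0.05 on CORT and 0.05 on T3+CORT, against -0.01 over all tested probes.

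Genes known as targets of the receptors moved both ways. Of 36 listed, 33 had a probe and 21 were tested, 1 probe for each gene. On CORT 5 rose and 1 fell, and on T3+CORT 4 rose and 2 fell, 28.6% in each, against 20.7% of all tested probes. Both counts include *Pdk4* and *Angptl4*, whose published changes on these arrays were known before the list was drawn up. The shares were not recounted without these genes, so no excess of targets over all tested probes is read from them. *Esrra*, itself a receptor gene, was also listed, and its listed probe ILMN_2972292 passed in neither comparison. *Pdk4*, a kinase that inhibits pyruvate dehydrogenase and a target of peroxisome proliferator-activated receptors, rose on CORT (log2 fold change 2.33 with standard error 0.08, adjusted p = 1.4e-11, limma), with means of 2100 on CORT and 1971 on T3+CORT, against 418 on vehicle. *Tgm2*, a transglutaminase that retinoic acid induces, rose by 1.02 on CORT (standard error 0.12, adjusted p = 2.6e-05, limma), with means of 172 on CORT and 157 on T3+CORT, against 84.2 on vehicle. That vehicle mean lies under the limit of detection of 87.0, so the size of the rise is uncertain. *Angptl4*, a lipoprotein lipase inhibitor and another target of these fatty acid receptors, changed by -0.47 on CORT (adjusted p = 0.0016) and by -1.07 on T3+CORT (adjusted p = 4.1e-07) on the log2 scale, with means of 369 on CORT and 244 on T3+CORT, against 511 on vehicle.

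The other targets that passed changed by less than 1.5-fold. *Acadvl* and *Idh3a*, enzymes of mitochondrial oxidation, rose on both CORT and T3+CORT, the desaturase *Scd1* rose on CORT, and the enolase *Eno3* fell on T3+CORT. *Pdk4* and *Angptl4* are listed in the study's tables from the same arrays and had been seen there when the list was made, and *Pdk4* and *Tgm2* are also known to respond to glucocorticoids. The median log2 fold change of the 21 was -0.06 on CORT and -0.08 on T3+CORT, against -0.01 over all tested probes. Without vehicle replicate 2, 3 of the 21 passed on CORT. *Angptl4* was the listed target with an interaction past the threshold (-0.80, adjusted p = 0.018). On T3 0 of the 21 passed.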

How the data were processed

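Total RNA of 12 HT-22 samples in 4 groups of 3 was hybridized to Illumina mouse whole-genome arrays. Groups and replicate numbers came from the labels. The normalized intensity values were deposited by the authors, whose methods name rank invariant normalization in BeadStudio, and were used here as log2 of the deposited values. The values show no background subtraction and share one distribution, at most 0.5 apart at any rank. The detection p-value columns deposited by the authors carry no sample name: 6 of 12, with 36.5% to 37.6% of probes detected, set the limit of 87.0, and 6 with at most 5.4% were left out. In all, 18 columns of single samples (12 signals and 6 detection p-values) were not used. The study's own lists of changed genes entered no test, but *Pdk4* and *Angptl4* had been seen in its tables when the target list was made.

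Gene symbols came from the platform annotation, with 1 symbol for 34885 probes, several for 18 and none for 10378. One limma model of the 4 groups (version 3.58.1 in R 4.3.3, lmFit, eBayes with a mean-variance trend) gave 6 contrasts. P values are two-sided, adjusted by the Benjamini-Hochberg method over 17746 probes and called under 0.05. The labels do not say that replicates were cultured independently beyond their numbers, so p values measure the spread between these arrays, and their number limits the precision. The labels name no slide, and if the slides divided the arrays by CORT treatment the slide and CORT cannot be told apart. Alternatives covered background correction, normalization, filters, variance model, array weights, samples in the fit, the replicate block, each array left out, the t-test with unequal variances that the methods name for synergy alone and that was applied here to the group comparisons (called the methods' t-test), the study's thresholds and 1 value per gene. The code was tested on simulated data. The members and gene lists were chosen with earlier results of these data known. Values on every array are given for each receptor probe that passed and for the receptors of the hormones given and their partners, the others by range, and list genes that passed with at least a 1.5-fold change are given with values. Promoter letters are those of RefSeq, build GRCm38.p6, which had a window for 40 of the 43 genes.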

Additional observations from a re-analysis of the deposited data

How the results depend on the processing

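Of 24 calls of single receptor probes under 526 alternatives in all, 484 kept their direction and side of the threshold, 42 lost the call and 0 reversed. The 24 include the calls of *Thra*, which was tested only through the groups without CORT. How often those calls were kept is no evidence of a fall. Of the 42, 19 came with the methods' t-test (the calls kept were *Vdr* at ILMN_2445166 and *Nr1h4* on CORT and on T3+CORT, and *Rxrb* at ILMN_2593038 on T3+CORT), 19 with 1 array left out (16 of the 24 calls were kept under every such fit) and 4 under other settings, which were no filter for *Rxrb* on CORT (adjusted p = 0.051) and, for *Ppard* in T3+CORT against T3, no filter (0.12), only the groups compared (0.12) and a limit taken from the dim side of the normalized values alone (0.053). The last was added after seeing the data. The cause of these losses was not tested. The count of receptor probes called on CORT (7) was 11 with array weights, 2 with the methods' t-test, 3 with 1 value per gene, 3 at the study's thresholds and 5 to 9 with 1 array left out. On T3+CORT (8) it was 3, 5 and 3 with the methods' t-test, 1 value per gene and the study's thresholds, and 6 to 9 with 1 array left out. In T3+CORT against T3 (9) it was 0 with the methods' t-test, 3 at the study's thresholds and 8 to 9 with 1 array left out. The T3, T3+CORT against CORT and interaction counts stayed at 0 under every alternative run. The 15 receptor genes above the limit became 11 at the stricter limit of 105.4, 11 when all 12 arrays had to reach 87.0, 20 when 1 array sufficed and 24 with the limit of 71.7 from the normalized values alone. Of the ligand handling genes, 0 passed on CORT, but 2 with array weights, 1 with only the groups compared, 1 with the replicate block and 0 to 2 with 1 array left out. On T3+CORT (2) the count was 0 with no filter, 1 with the methods' t-test and 0 to 2 with 1 array left out. Of the target genes, the CORT count (6) was 1 with the methods' t-test and 3 to 9 with 1 array left out, and the T3+CORT count (6) was 10 with array weights, 2 with the methods' t-test and 5 to 8 with 1 array left out.

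The replicate numbers showed no clear pairing of the arrays. Of 18 same-numbered pairs across groups 6 had a correlation of their deviations over 0.1 (range -0.27 to 0.45), and 4 of 12 arrays were closest to their own number. With so few arrays in a group, this check cannot exclude a factor shared by arrays of one number. With the replicate block the receptor counts were 7 on CORT, 8 on T3+CORT and 9 in T3+CORT against T3, and no single call was lost. The raw signals could not be tied to samples, so that alternative was not run. Dim probes limit what can be said of *Thra*, *Nr3c1* and the other receptors near the limit of detection.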
